A study of Mus musculus with 3 samples.

Results

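The clusters examined here lie in 10 genes of the heterogeneous nuclear ribonucleoprotein (hnRNP) family: Hnrnpa2b1, Hnrnpa3, Hnrnpc, Hnrnpd, Hnrnpdl, Hnrnph1, Hnrnpk, Hnrnpl, Hnrnpm and Hnrnpu. A cluster, a short stretch in which crosslink positions of the splicing factor RBFOX2 gather, was assigned to a gene when it lay on the gene's strand with its midpoint inside the gene's GENCODE M21 span (mouse build GRCm38). By this rule 150 of the 87021 deposited clusters belonged to the 10 genes, with 3875 of 2850863 summed counts (0.136%). A count is read here as 1 cDNA start, the position next to which a crosslinked protein halted reverse transcription.

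The clusters come from eiCLIP (enhanced individual-nucleotide-resolution crosslinking and immunoprecipitation) of RBFOX2, recovered with the RBM9 antibody from primary hepatocytes of C57BL6/J mice on control diet, which were plated, left overnight and irradiated with UV. There was 1 group of 3 libraries and no comparison group. The labels give 3 livers and 3 pellets for a library, whereas the methods describe independent cultures from 2 mice each. The 3 libraries were pooled before the clusters were called, so no value has a replicate check, no difference was tested, and every interval below covers counting error only. Size-matched input was not used here. No RNA level was used, so binding cannot be told apart from the abundance of a transcript, nor fewer cells of a type from less RNA per cell. Of the marker genes listed for hepatocytes 7 of 8 held clusters, with 13180 counts in sum, against 1 of 4 for endothelial cells (12 counts) and 1 of 4 for Kupffer cells (15 counts).

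The hnRNPs coat nascent transcripts and help to decide which exons are joined, how stable an mRNA is and where it goes. Many of them control their own amount through alternative exons, retained introns or exons that expose the transcript to nonsense-mediated decay (NMD), the pathway that destroys mRNAs with an early stop codon. RBFOX proteins bind GCAUG in introns and UTRs, read as GCATG in DNA, and are found in a large assembly of splicing regulators that also contains hnRNP H, hnRNP M and hnRNP C.

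The GCATG sites beside the strongest clusters of each gene that had one are shown first, with 12 bases before the motif and GCATG in capitals, 5′ to 3′ on the strand of the gene. The sites of Hnrnph1 at 50380561 and 50386271 were added after the values were seen. Coordinates are 1-based on GRCm38.
Hnrnph1, chr11:50380922-50380951 (+), at the cluster of 311 counts: gaacataagagtGCATGattgctttgtaga
Hnrnph1, chr11:50380561-50380590 (+), at the cluster of 50 counts: ctgataggatttGCATGcttagcagaatgt
Hnrnph1, chr11:50386271-50386300 (+), at the 3′ UTR cluster of 80 counts: gtgatacatttgGCATGtttgttaattcta
Hnrnpa2b1, chr6:51469618-51469647 (-), at the 5′ UTR cluster of 82 counts: ttattaaaaatgGCATGgcgaggccgtagg
Hnrnpdl, chr5:100036274-100036303 (-), at the intron 6 cluster of 47 counts: ttttgatgttcaGCATGcatagtttcttat
Hnrnpk, chr13:58397034-58397063 (-), at the cluster of 34 counts: aaaaaataaaatGCATGtgtaaaattcata
Hnrnpm, chr17:33686587-33686616 (-), at the 5′ UTR cluster of 22 counts: gtcaagaattctGCATGcagggttggctct

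All 10 genes held clusters, where 41.8% of the 21951 protein-coding genes had at least 1. Each member lay above the median of the protein-coding genes with clusters, both in summed count (63.0) and in count per kb of gene (2.16). Hnrnph1 had the most, with 33 clusters and 1116 counts (exact Poisson 95% interval 1051 to 1183), more than 97.0% of those genes. Hnrnpa2b1 followed with 20 clusters and 608 counts (561 to 658). At the low end, Hnrnpu had 8 clusters and 142 counts (120 to 167). The other 7 genes fell between 232 and 339 counts with 11 to 16 clusters each, and in that stretch the intervals of all neighbours overlapped. The steps from Hnrnph1 to Hnrnpa2b1, from Hnrnpa2b1 to Hnrnpdl and from Hnrnpc to Hnrnpu were larger than the counting intervals.

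Per length the order changed for the long genes. Hnrnph1 had 117 counts per kb (110 to 124), Hnrnpa2b1 67.8 (62.5 to 73.4) and Hnrnpdl 55.7 (49.9 to 61.9), each apart from the next gene. Hnrnpk (26.6), Hnrnpa3 (24.0) and Hnrnpl (19.1) could not be separated from their neighbours in this middle stretch. Hnrnpd had 13.0 counts per kb, and the lowest values were those of Hnrnpu (8.51), Hnrnpm (7.63) and Hnrnpc (7.57), which overlapped. Hnrnpm therefore held more clusters than most members but spread them over 40.6 kb.

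**Figure D1:**
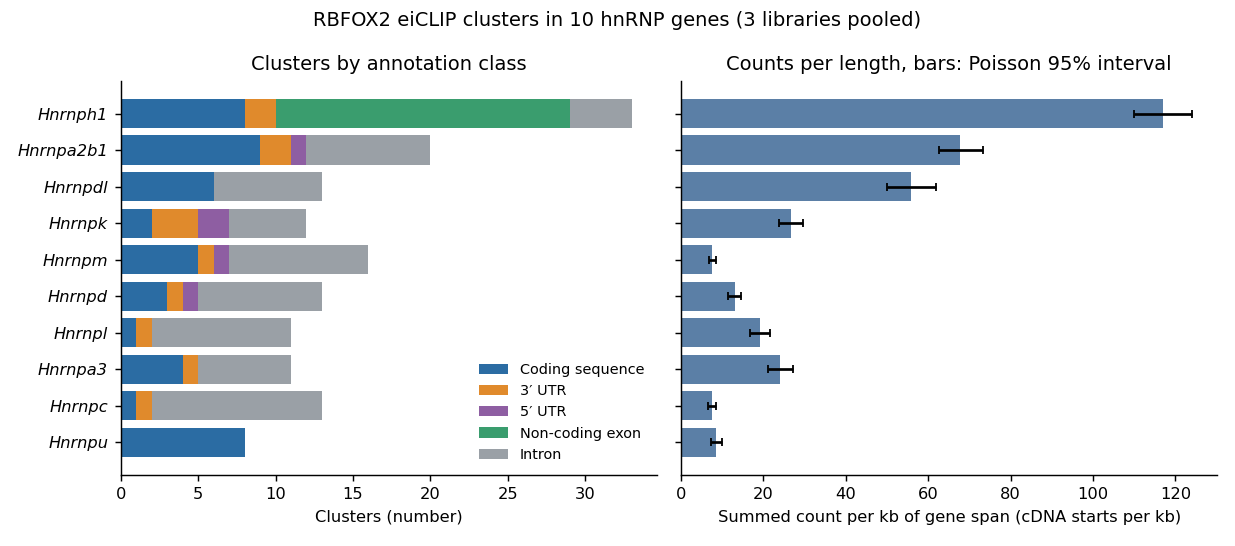
Left, number of clusters in each hnRNP gene, coloured by annotation class. Right, summed count per kb of gene span with its exact Poisson 95% interval, pooled over 3 libraries. Hnrnph1 stands at 117 counts per kb, and Hnrnpm, Hnrnpc and Hnrnpu lie below 10.

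Single clusters of the members held between 10 and 311 counts with a median of 19.5, where 10 is the lowest count in the deposited list and 17 its median. A count of 39 or more, the top 10% of the list, was reached by 20 of the 150 clusters (13.3%, Wilson 95% interval 8.80 to 19.7), against 10.3% of clusters in all protein-coding genes. The highest cluster of each gene except Hnrnph1 had 27 to 99 counts. In Hnrnph1 it had 311, more than 99.5% of all clusters.

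**Figure D2:**
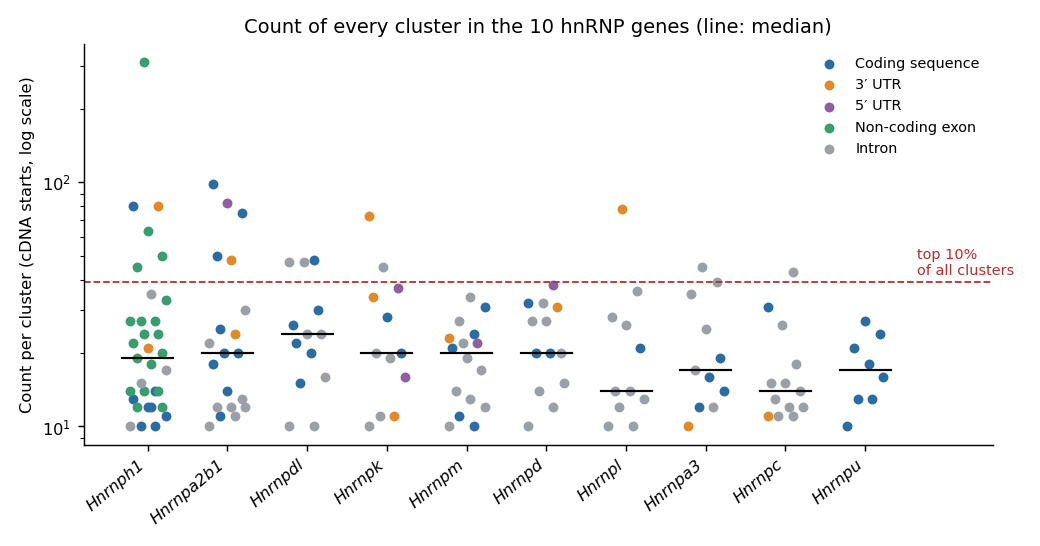
Count of every cluster (log axis) in each hnRNP gene, coloured by annotation class, with the median of the gene as a line and the lower limit of the top 10% of all clusters (39 counts) dashed. The gene medians run from 14 to 24, and only the Hnrnph1 cluster of 311 counts exceeds 99.

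Of the 150 clusters, 67 lay in introns (44.7%, 36.9 to 52.7), against 69.4% in all protein-coding genes. Coding sequence held 47 (31.3%, 24.5 to 39.1, background 14.6%), 3′ UTRs 12 (8.0%, 4.64 to 13.5, background 13.8%) and 5′ UTRs 5 (3.33%, 1.43 to 7.57, background 1.51%). The remaining 19 (12.7%, 8.26 to 18.9, background 0.780%) fell in exons of non-coding transcripts. All 19 were in Hnrnph1, and without this gene the intronic share was 53.8%. The non-coding transcripts in question run through introns of the coding ones, so 86 clusters (57.3%, background 70.2%) were intronic in every coding transcript that covers them.

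**Figure D3:**
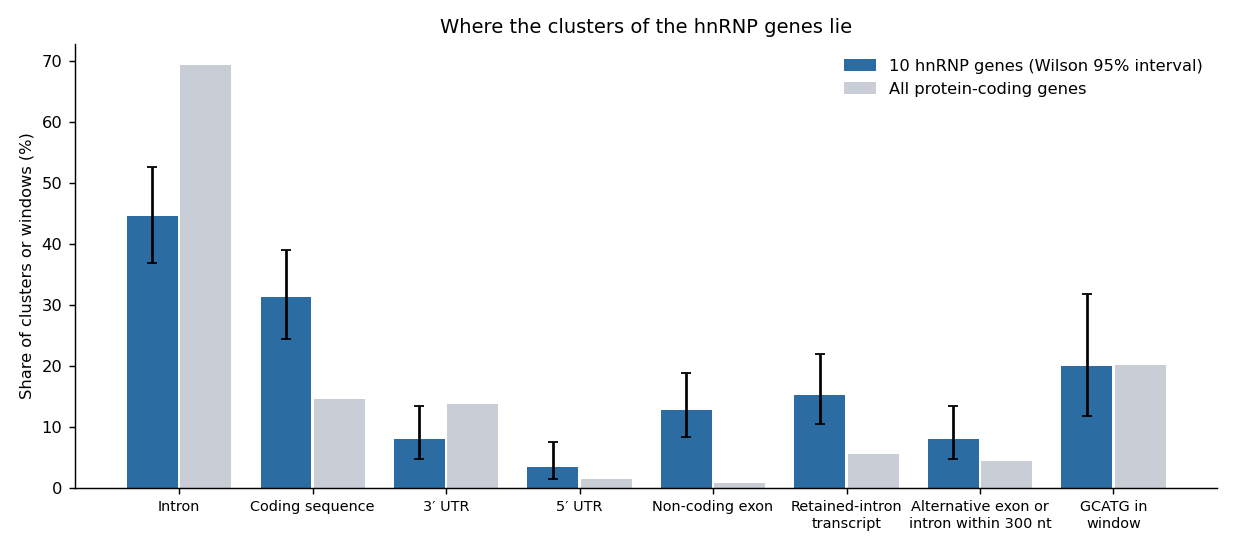
Share of the clusters of the 10 hnRNP genes (dark bars, Wilson 95% interval of counting error) and of all protein-coding genes (light bars) in each annotation class, in retained-intron sequence, at alternative exons (inside, or within 300 nt in the intron), and share of sequence windows with GCATG. The intronic share is 44.7% against 69.4%, and the GCATG share 20% against 20.1%.

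Retained-intron sequence was taken as sequence inside an exon of a transcript of the biotype retained_intron that is intron in at least 1 coding transcript. It held 23 of the 150 clusters (15.3%, 10.4 to 22.0), against 5.55% of clusters in all protein-coding genes. In 10 of the 23 (6.67% of 150, 3.66 to 11.8, background 2.06%) the retained-intron exon covered the whole coding intron, and in the other 13 only part of it. These 10 lay in Hnrnpa2b1 (5), Hnrnpdl (3), Hnrnpa3 (1) and Hnrnpk (1). Of the 23, 19 were intronic in every coding transcript and 4, all in Hnrnpa2b1, were exonic in another coding transcript. Hnrnpa2b1 held 11, Hnrnpl 5, Hnrnpdl 3, Hnrnpk 2 and Hnrnpa3 and Hnrnpm 1 each. Hnrnpc, Hnrnpd and Hnrnpu held 0, and Hnrnph1 has no transcript of this biotype. The 3 highest were the Hnrnpa2b1 clusters of 75 and 48 counts, which are also coding and 3′ UTR sequence, and the Hnrnpdl intron 6 cluster of 47 counts. A further measure, chosen after the values were seen, left out these 4 and added exons of processed and NMD transcripts, so that a cluster had to be intronic in every coding transcript and exonic in some other one. By it 38 clusters qualified (25.3%, 19.0 to 32.8, background 5.59%), the 19 named above and 19 in Hnrnph1. The members carry a median of 13.0 annotated transcripts and the protein-coding genes with clusters a median of 6.0. The part of this richer annotation in the shares was not tested.

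No cluster lay in sequence that only NMD transcripts use (0 of 150, with an upper Wilson limit of 2.50%), against 0.559% in all protein-coding genes. Hnrnpa3, Hnrnpc, Hnrnph1 and Hnrnpm have no annotated NMD transcript, so their 11, 13, 33 and 16 clusters could not qualify. The 150 and the limit of 2.50% include them all the same. A further 32 (21.3%, background 5.08%) lay in exons of NMD transcripts that coding transcripts share, so they do not mark the NMD forms. The annotation gives 28 alternative exons in the 10 genes, some overlapping, meaning internal exons that another coding or NMD transcript skips. For 10 of them a cluster lay inside or within 300 nt in the intron, leaving out clusters in other exons of coding or NMD transcripts. Together these were 12 clusters with 289 counts (8.0%, 4.64 to 13.5, background 4.47%), 5 inside the exon, 3 upstream and 4 downstream. With clusters in neighbouring exons counted too, 14 of the 28 exons had a cluster within 300 nt, with 16 clusters and 416 counts (10.7%, 6.67 to 16.6, background 4.94%). Among coding and NMD transcripts, only NMD transcripts include 5 of the 28 exons, and 2 of these also occur in retained-intron transcripts. Of these 5, 0 had a cluster inside or within 300 nt, exonic clusters counted. Alternative exons with a cluster were not counted over all protein-coding genes, so these counts of exons have no background.

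Hnrnph1 (chr11:50376990-50386528, plus strand) encodes hnRNP H, a splicing regulator that binds runs of guanines. Its signal gathered in intron 4 of the reference coding transcript (chr11:50379965-50381458, 1494 nt), where 14 clusters of 12 to 311 counts (median 25.5) summed to 684. This was 61.3% of the counts of the gene, at 458 counts per kb of intron, against 53.7 in the rest of the gene. It was also the highest count per kb among the introns of the members' reference transcripts. Of the annotated processed transcripts of the gene, 2 read through this intron without splicing it. Another processed transcript has its last exon inside this intron, and the clusters of 311 and 22 counts lie in that exon. As a last exon of a processed transcript, it was not counted among the alternative exons.

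The highest Hnrnph1 cluster, chr11:50380934-50380949, held 27.9% of the gene's counts, 518 nt before the next exon of a coding transcript. The GCATG shown above starts at the first base of this cluster. Without it the intron still had 373 counts. A second GCATG of the intron lay in the windows of 3 neighbouring clusters of 12, 50 and 24 counts, where the cluster of 50 counts spans chr11:50380543-50380562. Directly behind exon 4, a cluster of 63 counts had its midpoint 28 nt into the intron.

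Outside intron 4, Hnrnph1 had clusters of 80 counts each in exon 6 and in the 3′ UTR, the latter at chr11:50386271-50386356 with GCATG 12 nt from its 5′ end. Intron 5 held 3 clusters with 51 counts. The only alternative exon of the gene by the definition used here, 50 nt at chr11:50385141-50385190, had no cluster within 300 nt. The nearest on either side had 10 counts each, with midpoints 459 and 611 nt away.

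**Figure D4:**
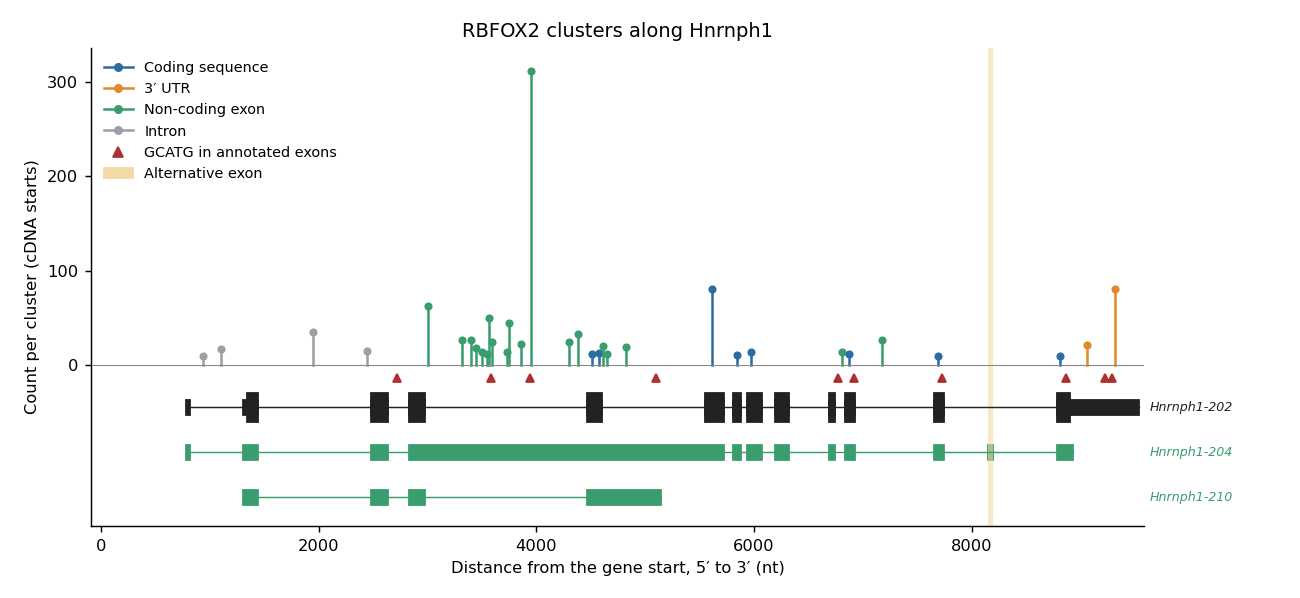
Count of each cluster against distance from the start of Hnrnph1, with the reference coding transcript (black, coding parts taller), processed transcripts (green boxes), GCATG in annotated exons (triangles) and the alternative exon (shaded). The 14 clusters in intron 4, drawn green since a processed transcript covers them, include the peak of 311 counts, which stands on a GCATG.

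Hnrnpa2b1 (chr6:51460932-51469894, minus strand) encodes a pair of isoforms that bind RNA in splicing and transport and differ by a 36-nt exon close to the N terminus. This exon (chr6:51467391-51467426) is included in 2 and skipped in 5 coding or NMD transcripts. A cluster of 22 counts, chr6:51467375-51467404, covered its 5′ splice site. Another, of 12 counts, had its midpoint 68 nt downstream, which is only 28 nt upstream of the next coding exon. The 15 exon bases (capitals) and 15 intron bases at this splice site are nearly the stretch that the cluster of 22 counts covers. No GCATG was found within 50 nt of that cluster. For comparison, the 3′ splice site of the 36-nt alternative exon of Hnrnpm is given in the same way, with its exon bases in capitals. That exon is a shorter form of exon 6 of Hnrnpm-206 (chr17:33666494-33666685), in which the lower-case bases are exonic too. Both splice sites were chosen after the values were seen.
Hnrnpa2b1 36-nt exon, 5′ splice site, chr6:51467376-51467405 (-): TTGGAGAGGAAAAAGgtactctaccagcag
Hnrnpm 36-nt exon, 3′ splice site, chr17:33666515-33666544 (-): atccatgcattacagGCTGGAAGACTTGGA

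The 3 highest Hnrnpa2b1 clusters fell on exons, whereas 8 of its 20 clusters were intronic, with 10 to 30 counts. The highest, chr6:51466612-51466716 with 99 counts, lay in coding exon 4, and the second, chr6:51469617-51469789 with 82 counts, in the 5′ UTR of exon 1. This placing is by midpoint, and the second cluster runs on into intron 1, where its printed GCATG lies. The third had 75 counts at chr6:51465185-51465245, and its midpoint lay inside a 63-nt alternative exon (chr6:51465179-51465241). An alternative exon of 120 nt (chr6:51464428-51464547), included in 4 and skipped in 3 transcripts, held clusters of 14 and 25 counts, and one of 81 nt (chr6:51466142-51466222) a cluster of 20. The exons of 63 and 81 nt are each included in 7 and skipped in only 1 coding or NMD transcript, the same one for both. A 136-nt exon near the 3′ end, included in 3 and skipped in 1, had a cluster of 11 counts 92 nt upstream. Hnrnpa2b1 thus supplied 7 of the 12 clusters at alternative exons and 11 of the 23 in retained-intron sequence. Those 7 include the clusters of 75 and 20 counts, which lie in exons that most of its transcripts include.

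Hnrnpa3 (chr2:75659261-75669407, plus strand), of the same A/B subfamily, had a different layout. Its 11 clusters held 244 counts (214 to 277), 136 of them (55.7%) in 4 clusters of intron 1, with the highest at chr2:75659696-75659744 (45 counts, 331 nt behind exon 1). Intron 3, only 78 nt long and kept by 1 retained-intron transcript, held a cluster of 25 counts. No cluster lay inside its 81-nt alternative exon or within 300 nt of it in an intron. The nearest one, of 14 counts, was 126 nt upstream in the neighbouring coding exon. Downstream, the nearest was a cluster of 12 counts in intron 7, 623 nt away.

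Hnrnpd (chr5:99955935-99978938, minus strand) encodes AUF1, which binds AU-rich elements of mRNA 3′ ends, and 2 of its exons are known to be alternative. Of its 13 clusters, with 298 counts (265 to 334), 8 lay in the long intron 2 of Hnrnpd-211 and held 157 counts (52.7%). The one closest to the 57-nt alternative exon (chr5:99976534-99976590) had 27 counts and lay 284 nt downstream of it. The 147-nt alternative exon had no cluster inside or in its flanking introns, and the nearest, with 20 counts, lay 170 nt upstream in the exon before it. The highest cluster of the gene, chr5:99978808-99978848 with 38 counts, was in the 5′ UTR, and a 3′ UTR cluster had 31 counts. The NMD exons of 107 and 71 nt, which overlap, had their nearest upstream cluster, this same 3′ UTR cluster, at 321 nt.

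Hnrnpdl (chr5:100033577-100039664, minus strand), a relative of Hnrnpd, held 13 clusters with 339 counts (304 to 377). Intron 6 (chr5:100036196-100036480, 285 nt), kept by 2 annotated transcripts, had 3 clusters with 81 counts (23.9% of the gene, 284 per kb). The strongest of them, chr5:100036274-100036293 with 47 counts, lay 88 nt before the next exon, and its GCATG starts 2 nt from the cluster's 5′ end. Intron 1 held 4 clusters with 97 counts. The highest cluster of the gene, chr5:100037181-100037216 with 48 counts, was in coding exon 4. The 105-nt exon, used by an NMD and a retained-intron transcript but by no coding one, had no cluster within 300 nt, the nearest being 470 nt upstream with 10 counts.

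Hnrnpk (chr13:58391142-58403343, minus strand) encodes a KH-domain protein that binds C-rich RNA. Its 12 clusters held 324 counts (290 to 361). The 3 clusters assigned to its 3′ UTR, with 34, 11 and 73 counts, all lay in the alternative last exon of Hnrnpk-210, which is intron 7 in Hnrnpk-202. This intron held 36.4% of the counts of the gene at 138 per kb. The highest, chr13:58397645-58397740, began near the 5′ end of that exon extension, with its midpoint 61 nt past the splice site that Hnrnpk-202 uses at the end of a 44-nt alternative exon. The one of 34 counts, chr13:58397078-58397107, had GCATG 56 nt downstream of its 5′ end. A retained-intron transcript covered a cluster of 45 counts at chr13:58399082-58399201, and 39 nt upstream of a 54-nt alternative exon there was a cluster of 11 counts. That exon is included in 1 and skipped in 7 coding or NMD transcripts. The nearest exon edge of any coding transcript was closer, 14 nt downstream of the cluster of 11 counts.

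Hnrnpl (chr7:28808541-28822266, plus strand) encodes a protein that binds CA repeats. It held 11 clusters with 262 counts (231 to 296), of which the 3′ UTR cluster chr7:28821986-28822094 had 78 (29.8%). Intron 6 (chr7:28815353-28818460) held 5 clusters with 116 counts (44.3%), and 4 of these lay in retained-intron transcripts. The same intron contains a 70-nt exon, chr7:28817335-28817404, which no coding transcript includes, only the NMD transcript Hnrnpl-213 and the retained-intron transcript Hnrnpl-207, and whose length is not a multiple of 3. There was no cluster in this exon or within 300 nt of it. The nearest were a cluster of 28 counts 309 nt upstream, just outside that limit, and one of 36 counts 456 nt downstream. Beside the 497-nt alternative exon a cluster of 14 counts lay 106 nt downstream. This exon, included in 1 and skipped in 2 coding or NMD transcripts, ends at the same base as exon 1 of the reference transcript Hnrnpl-201. The cluster is thus also the same distance behind that exon 1.

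**Figure D5:**
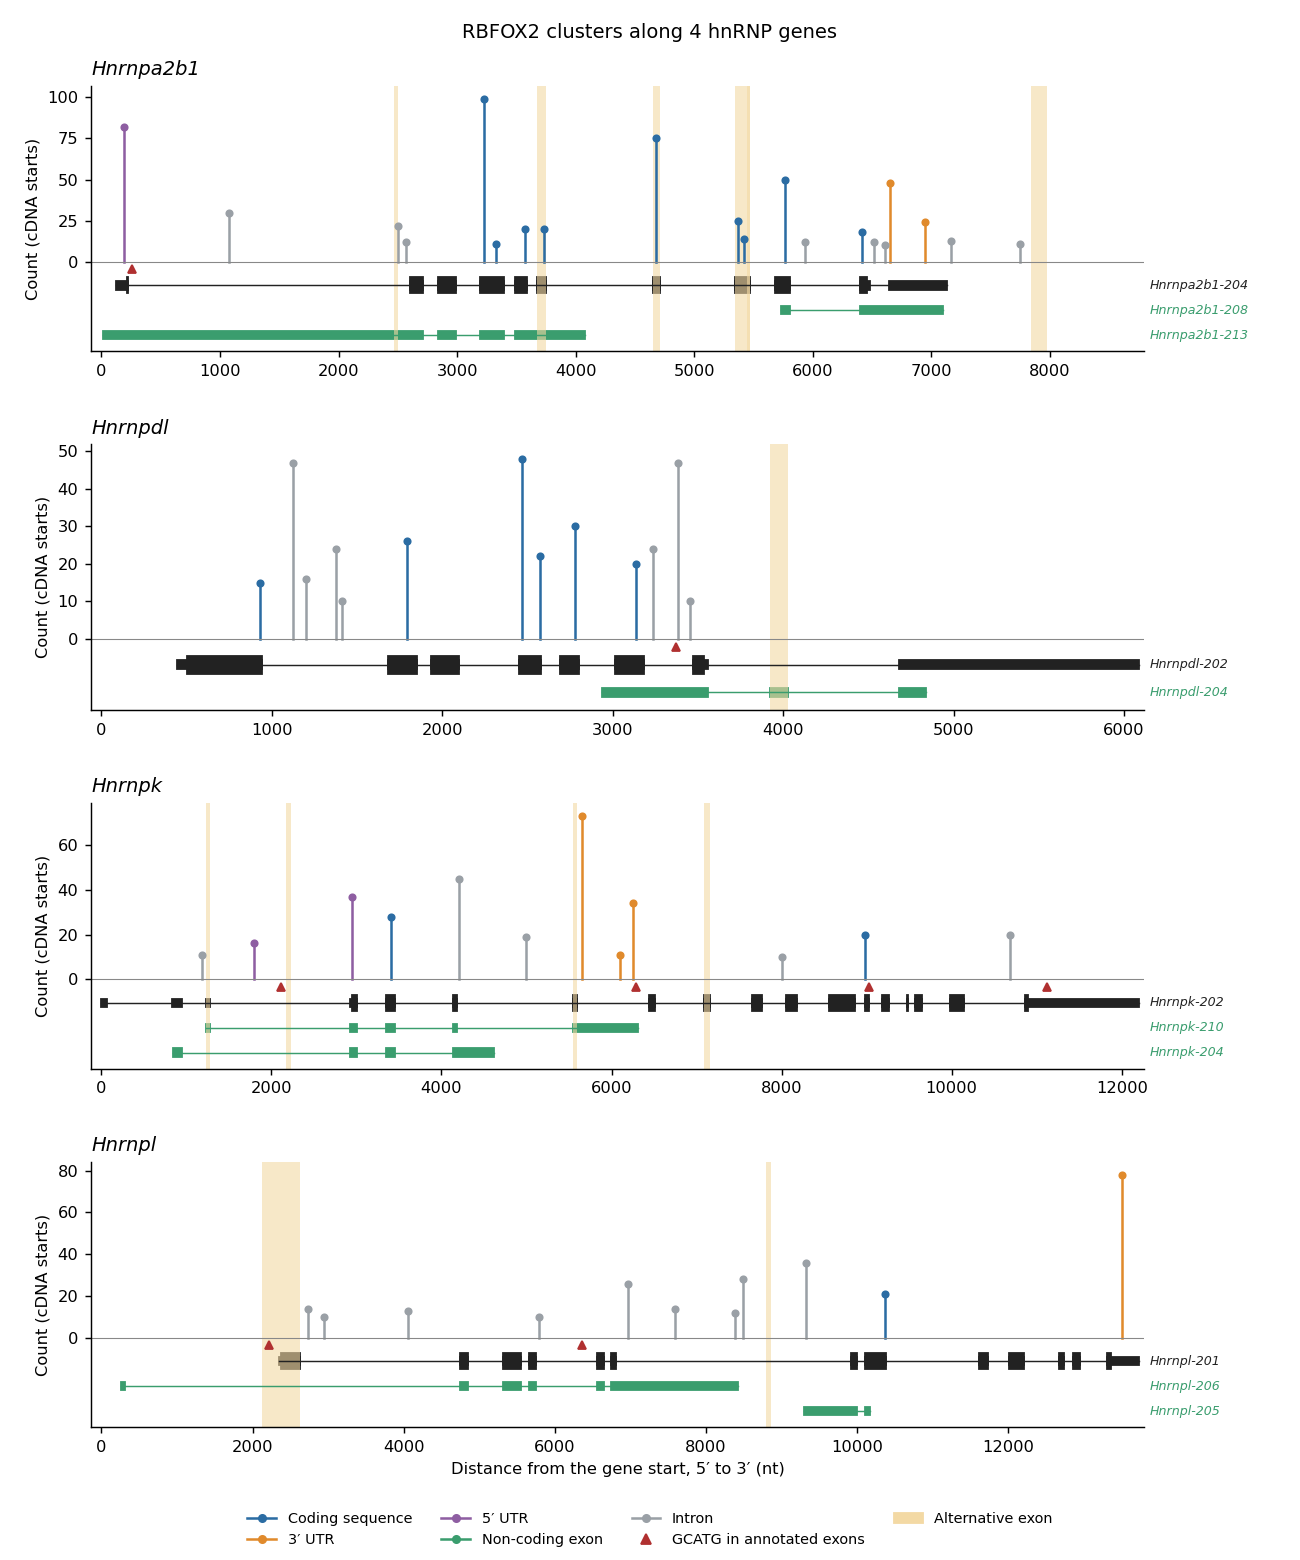
Count of each cluster against distance from the gene start in Hnrnpa2b1, Hnrnpdl, Hnrnpk and Hnrnpl, with the reference coding transcript (black), retained-intron transcripts and Hnrnpk-210 (green boxes), GCATG in annotated exons (triangles) and alternative exons (shaded). The 3 Hnrnpk clusters in orange stand over the extended last exon of Hnrnpk-210, and the 70-nt NMD exon of Hnrnpl lies between clusters of 28 and 36 counts.

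Hnrnpm (chr17:33646233-33686860, minus strand), which binds GU-rich RNA, had 16 clusters and 310 counts (276 to 347). Its highest cluster, chr17:33650499-33650500 with 34 counts, lay 102 nt upstream of an 803-nt alternative exon (chr17:33649595-33650397). This exon is included in 4 and skipped in only 1 coding or NMD transcript. The 36-nt alternative exon (chr17:33666494-33666529), whose 3′ splice site is printed above, had a cluster of 24 counts, chr17:33666466-33666527, with its midpoint inside. In Hnrnpm-206 these 36 nt are the 3′ part of the longer exon 6. The 5′ UTR cluster with GCATG, chr17:33686614-33686773 with 22 counts, also lies in the span of March2, a gene on the same strand, so its assignment to Hnrnpm is uncertain. GCATG occurred 4 times near the clusters of Hnrnpm (3.65 per kb) and 25 times in its other annotated exons (3.64 per kb). The 803-nt exon alone held 20 of those 25, and without it the rate in the other exons was 0.825 per kb.

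Hnrnpc (chr14:52073377-52104028, minus strand) encodes a protein that binds uridine tracts and packages nascent RNA. Its 13 clusters, with 232 counts (203 to 264), were intronic in 11 cases. Intron 2 held 5 with 93 counts and intron 1 held 4 with 70. The highest, chr14:52084506-52084526 with 43 counts, lay 100 nt upstream of an exon, whereas the other 10 were over 300 nt from one. None of its 4 overlapping alternative exons had a cluster within 300 nt.

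Hnrnpu (chr1:178321108-178337797, minus strand) encodes a large scaffold protein that binds chromatin and RNA. All 8 of its clusters were in coding sequence, with 10 to 27 counts and 142 in sum, and the highest lay in exon 7. No other member had all its clusters in coding sequence. Its 51-nt NMD exon was 5915 nt from the nearest cluster.

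Over the 10 genes, 19 of the 86 clusters that were intronic in every coding transcript lay within 300 nt upstream of a coding exon (377 counts) and 19 within 300 nt downstream (454 counts). The remaining 48 (55.8%, 45.3 to 65.8) were farther away and held 1278 counts, which include the Hnrnph1 peak of 311.

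Sequence was at hand for 60 of the 150 clusters, since bases could be read only where annotated exons cover the cluster and 50 nt on each side. GCATG, searched as these letters on the strand of the RNA alone, was present in 12 of the 60 windows (20%, 11.8 to 31.8), against 20.1% of 17383 windows in all protein-coding genes, so the share was close to the background. Of the 12, 7 belonged to Hnrnph1 (of 24 windows, 29.2%) and 5 to the other genes (of 36, 13.9%, 6.08 to 28.7). GCATG began within 15 nt of the cluster's 5′ end in 4 of the 12. Counted by length, it occurred 14 times in 10761 nt of windows (1.30 per kb) and 51 times in 55529 nt of other annotated exon sequence (0.918 per kb). Of the 51, 20 lay in the 803-nt exon of Hnrnpm, and without that exon the rate outside the windows was 0.566 per kb. Without Hnrnph1 the rates inside and outside were 0.979 and 0.899, and 0.979 and 0.525 when that exon was left out too. Hnrnpa3, Hnrnpc, Hnrnpd, Hnrnpl and Hnrnpu had no GCATG in the windows that could be read, which were 10 windows in all. Most of their intronic clusters could not be read, so the motif may be present there unseen.

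Side by side, 16 further genes of the hnRNP family all had clusters, with 157 clusters and 3863 counts. Their introns held 54.1% of the clusters, retained-intron sequence 14.6% and alternative exons 14.6%. Most of these retained-intron clusters lay in a single gene that is not named here. Among these 16 genes, Pcbp2 had a summed count of 529 (17.9 per kb), and Hnrnpa1 and Syncrip had 481 each (76.8 and 13.5 per kb). In this list 6 clusters lay in sequence of NMD transcripts alone, all in Hnrnpa1, whereas the 10 members had 0. Of 11 genes for SR proteins, the serine- and arginine-rich splicing factors, 8 held clusters, 46.7% of which lay in retained-intron sequence, against 15.3% in the members. These differences between lists were not tested.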

How the data were processed

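RBFOX2 eiCLIP was done in 3 libraries of primary mouse hepatocytes, which form 1 group. By the methods of the study and the submitters' processing notes (CASAVA 1.8.4, cutadapt, STAR 2.4.2a), the authors trimmed adaptors, discarded reads under 18 nt, aligned the rest end to end to GRCm38, kept unique alignments, collapsed reads sharing a position and a random barcode, and called clusters on cDNA starts with Paraclu in iMaps. Reads that match a pseudogene or paralog equally well are lost in this way. The deposited value of each cluster is a whole-number count pooled over the libraries, not normalised. Its meaning as cDNA starts was inferred from the values. Depth per library is unknown.

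Clusters were placed with GENCODE M21 (the study names another release of this annotation) and classed by midpoint (coding sequence first, then either UTR with the 3′ one ahead, exons of non-coding transcripts, and last introns), with retained_intron exons counted as intron. Sequence came from annotated transcripts. The reference transcript of a gene served to number introns. Shares have Wilson and counts exact Poisson 95% intervals, and no test was made. Python 3.11.15, numpy 2.4.6, scipy 1.17.1 and matplotlib 3.10.9 were used, and the placing, classing and motif steps were checked on made-up gene models with known answers. The members, the gene lists and the rules were chosen with earlier results of these data known. By rule, all members, the highest cluster of each, clusters at alternative exons among the 3 highest of a gene and the 3 highest retained-intron clusters were named. Other clusters, and the further Hnrnph1 sites, were named after their values were seen. Of the further hnRNP family genes, those with high summed counts were named, and 1 gene is not reported here. Alternatives changed the count filter, merging, placing, annotation, flank, motif and window.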

Additional observations from a re-analysis of the deposited data

Results flagged for a closer look

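Outside the span of the members, a cluster of 23 counts lay at chr6:51460769-51460805, on the strand of Hnrnpa2b1 and with its midpoint 127 nt past the annotated end of that gene. It was listed because it carries signal that none of the values above use.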

How the results depend on the processing

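The 9 results were recomputed under 87 alternatives, of which 71 stayed within the counting interval (counts within 1.5 times) and 16 did not. Keeping clusters at or above the median count left 86 clusters with an intronic share of 36.0%. Keeping the top 10% left 20 clusters with 1448 counts, an intronic share of 30%, a 3′ UTR share of 20% and GCATG in 50% (23.7 to 76.3) of the 10 windows with sequence. For clusters filtered by count no share over all protein-coding genes was at hand, so these values have no background. Merging clusters within 200 nt gave an intronic share of 55.1% and a share of 17.8% in introns that processed, NMD or retained-intron transcripts read through. Counting any exon of an NMD transcript raised that count from 0 to 32. The GCATG share fell to 11.7% with TGCATG and to 10.5% with 20 nt on each side. CATGC, which is GCATG read on the opposite strand, was searched in its place and found in 11.7% of the windows. Without Hnrnph1, an alternative added after the data were seen, the intronic share was 53.8% and the read-through share 16.2%. Counting only coding introns that a retained-intron exon covers whole gave 6.67% in place of 15.3%. Leaving out the 803-nt exon of Hnrnpm lowered the GCATG rate outside the windows from 0.918 to 0.566 per kb. These settings and the read-through measure were also added after the data were seen. The cause of these shifts was not tested beyond what each setting removes. No library could be left out, because the libraries were pooled before deposit. No paired analysis was possible because the deposited list holds 1 pooled column and no test was made. Since only 60 of 150 clusters could be read as sequence, motif shares speak for annotated exons and introns kept in some transcript.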
